A study of Mus musculus with 8 samples.

Results

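The ATP-binding cassette (ABC) transporter genes of the mouse were followed in liver RNA of animals with and without Atp7b, which encodes the copper pump whose loss causes Wilson disease. Members were chosen by symbol alone, as every gene of subfamilies A to G whose name is Abc, a subfamily letter, a number and at most 1 further letter. This gave 50 genes of the 54232 in the count table, and 41 of them had enough counts to be tested, among 15811 tested genes. ABC genes that carry other symbols, such as Cftr, Tap1 and Tap2, are outside this definition and are described separately. Libraries came from liver of mice aged 6 months, 4 wild type (WT) and 4 Atp7b knockout (KO). The labels give the genotype and the tissue, but no strain, sex, diet, allele design and no word on whether the libraries came from different animals. The p-values therefore reflect spread among these libraries, which may be technical. The title of the series names bile acid physiology in Wilson disease as its subject, which makes the exporters of bile salts, phospholipid, sterol and conjugates the members closest to its question.

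ABC proteins bind and hydrolyse ATP, and most use it to push a substrate across a membrane. In hepatocytes several of them sit in the canalicular membrane, where the bile salt export pump, the phosphatidylcholine floppase, the sterol heterodimer and the conjugate exporter together make bile. Others sit in the sinusoidal membrane and return conjugates and bile acids to blood, which is a known route of overflow when canalicular export is impaired. Still others work inside the cell in peroxisomes, mitochondria and lysosomes, and subfamilies E and F are soluble proteins of ribosomes and translation that transport nothing.

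Total counts ran from 9880253 to 27530506 per library. Levels are CPM, counts put on a common library size after scaling by the trimmed mean of M values (TMM), and changes are log2 values, KO minus WT, with their standard error (SE). A gene was called when edgeR's quasi-likelihood test gave an adjusted p under 0.05 (Benjamini-Hochberg over all genes tested). Atp7b itself averaged 24.5 ± 10.1 CPM over WT libraries and 7.83 ± 1.19 CPM over KO libraries (SD, n = 4 each). It was called lower (-1.65 ± 0.32, adjusted p = 0.00312), also with library totals alone (-1.28, adjusted p = 0.0211). Its WT libraries read 27.4 to 31.95 CPM except replicate 3, at 9.63 CPM, just above the highest KO library (8.91 CPM). That separation depended on the scaling. By library totals, WT replicate 3 (68 of 9880253 counts) lay below every KO library, the lowest being KO replicate 3 (128 of 16244837). WT replicate 3 had the smallest total and stood apart on the second principal component, at -92.9 against 18.0 to 40.7 for the other WT libraries. It was the lowest WT library for 20 of the 41 tested ABC genes and the highest for 10, where WT replicate 1 was lowest for 16 and highest for 10. Because replicate 3 stood apart on that component, calls of ABC genes and list counts that change without it are given both ways.

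Of the 41 tested ABC genes, 15 were called, which is 36.6% against 30.0% of all tested genes. Called higher in KO were 5 genes (12.2%, against 17.6% of all genes), namely Abcb1a, Abcb1b, Abcc4, Abcc5 and Abcc12. Called lower were 10 genes (24.4%, against 12.5% of all genes), namely Abcb11, Abcg5, Abcg8, Abcc3, Abcc6, Abcc10, Abca8a, Abcd3, Abcb10 and Abcb6. In TMM-scaled CPM, all KO libraries lay above all WT libraries in 7 tested ABC genes (18.7% of all genes did so) and below them in 9 (13.4% of all genes). The median change over the 41 genes was -0.33, beside -0.05 over all tested genes.

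The split between higher and lower depended on how libraries were scaled. With library totals alone, where the median of all genes moved to 0.37, 12 ABC genes were called higher (30.4% of all genes were) and 8 lower (4.06%), 20 in all (34.4%), with an ABC median of 0.08. Scaled to hepatocyte markers, 9 were called higher (24.2%) and 8 lower (4.75%), 17 in all (28.9%). DESeq2 called 7 higher (19.4%) and 13 lower (16.2%), 20 in all (35.5%). Without WT replicate 3, 42 ABC genes were tested, and 9 were called higher (26.0% of all genes) and 17 lower (23.4%). Of the 15 called genes, 13 kept their call in each of the 18 alternative settings run for them, and the exceptions were Abcb6 and Abcc10. Sizes moved with the scaling, so fold values below hold for TMM. With library totals and with hepatocyte scaling the called falls were smaller and the called rises larger. Abcb11 then changed by -0.64 and -0.73, Abcd3 by -0.75 and -0.84, Abcb10 by -0.59 and -0.69, and Abcb1b by 3.24 and 3.15.

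**Figure D1:**
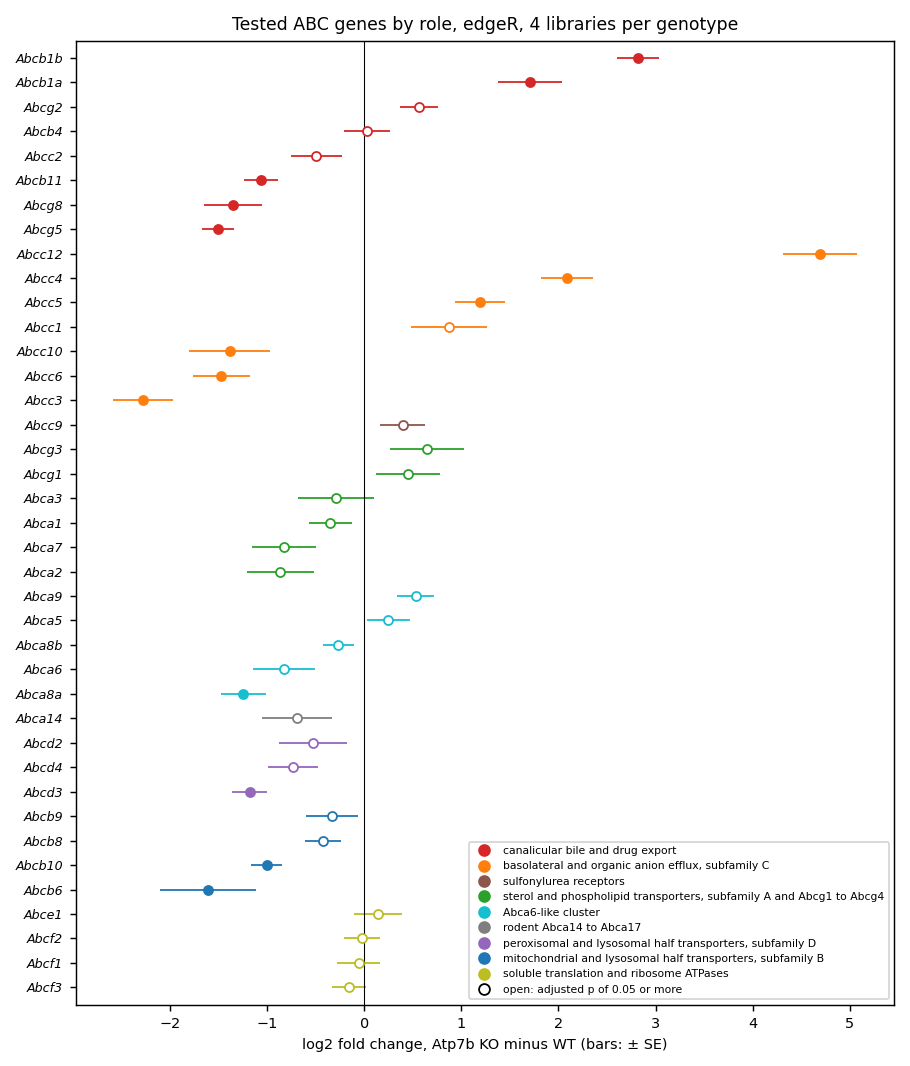
Log2 fold change (KO minus WT, horizontal axis) of 39 of the 41 tested ABC genes ordered by role, with bars for 1 SE, from edgeR over 4 WT and 4 KO libraries; filled points were called. The 5 genes called higher reach from 1.19 (Abcc5) to 4.70 (Abcc12), and the 10 called lower from -1.005 (Abcb10) to -2.28 (Abcc3).

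The canalicular exporters did not move together. The bile salt and sterol exporters fell, the phospholipid and conjugate exporters were not called, and both P-glycoproteins, drug pumps of low level in normal liver, rose. Of 8 genes, 2 were called higher (17.6% of all tested genes were) and 3 lower (12.5%), with a median change of -0.23. Without WT replicate 3 they were 3 higher and 4 lower (26.0% and 23.4%).

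Abcb11, the bile salt export pump (ENSMUSG00000027048.15), lies on the minus strand of mm10 chromosome 2 from 69238282 to 69342616. It read 684, 827, 707 and 884 CPM in WT replicates 1 to 4 and 331, 383, 353 and 416 CPM in KO replicates 1 to 4. Every KO library was below every WT library, by 2.09-fold on average (-1.06 ± 0.17, adjusted p = 0.00108). Within 3 series of library numbers the difference was -0.94, -1.0 and -1.04 (log2 of CPM plus 0.1). The series were grouped here from the numbers alone. The first holds WT replicate 1 and KO replicates 1 and 2, and the second WT replicate 3 and KO replicate 3. The third holds WT replicates 2 and 4 and KO replicate 4. With so few libraries in each series, these differences are given as values only. Abcb11 is a known target of the bile acid receptor FXR, which binds inverted repeats of AGGTCA with 1 base between them, so the stretch before its start is shown (RefSeq, GRCm38.p6, chr2:69342617-69342766, minus strand), with a match to AGGTCA, any base, then TGACCT in capitals.
Abcb11: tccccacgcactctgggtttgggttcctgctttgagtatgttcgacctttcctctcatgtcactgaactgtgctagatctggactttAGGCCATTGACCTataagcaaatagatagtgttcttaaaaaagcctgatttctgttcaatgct
The match begins 63 bases before the gene start and has 1 mismatch. Searched on both strands with at most 1 mismatch, in windows from 250 bases before to 50 after each start, such a match was found in 0.0822% of 32851 RefSeq promoters (27 of them). Of the 38 ABC genes with a promoter in that table, Abcb11 was the 1 gene that held it.

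Abcb4, the floppase that moves phosphatidylcholine into bile, lies on chromosome 5 (8893717 to 8959231). It read 215, 220, 145 and 275 CPM in WT and 161, 204, 276 and 232 CPM in KO. The groups overlapped fully (0.03 ± 0.23, adjusted p = 0.941), and the sign turned without WT replicate 3 (-0.13). Abcc2, which exports conjugated bilirubin and glutathione conjugates, read 578, 614, 336 and 821 CPM in WT and 441, 432, 332 and 467 CPM in KO. Here WT replicate 3 sat with the KO libraries. Abcc2 was not called with it (-0.49, adjusted p = 0.184) and was called lower without it (-0.70, adjusted p = 0.00554).

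Abcg5 and Abcg8 are the obligate partners of the sterol exporter that puts cholesterol and plant sterols into bile. They lie head to head on chromosome 17, Abcg5 on the minus strand (84658234 to 84683011) and Abcg8 on the plus strand (84676302 to 84700333). Annotated exons of the genes share 82 bases, and since the strand setting of the counting is not given, reads there cannot be assigned. The stretch between the RefSeq starts, shown because both genes are read outward from it, is 109 bases long and holds no annotated exon base, although in GENCODE 1 Abcg8 transcript starts farther upstream, so that the annotated genes overlap (GRCm38.p6, chr17:84683012-84683120, plus strand).
Abcg5-Abcg8 gap: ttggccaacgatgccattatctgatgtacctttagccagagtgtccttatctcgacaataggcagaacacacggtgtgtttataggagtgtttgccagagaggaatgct
Abcg5 read 77.7, 89.7, 91.0 and 95.4 CPM in WT and 29.0, 26.6, 36.9 and 32.4 CPM in KO. Abcg8 read 75.4, 103, 48.7 and 128 CPM in WT and 28.1, 28.1, 46.1 and 37.7 CPM in KO. Both fell without overlap between genotypes in TMM-scaled CPM, Abcg5 by 2.83-fold (-1.503 ± 0.16, adjusted p = 8.09e-05) and Abcg8 by 2.54-fold (-1.35 ± 0.30, adjusted p = 0.00591). By library totals Abcg8 overlapped, as WT replicate 3 (344 of 9880253 counts) lay below KO replicates 3 (907 of 16244837) and 4 (786 of 18423836). The tight WT values of Abcg5 contrast with the spread of Abcg8, whose lowest WT value was that of replicate 3, and in the series holding that library the Abcg8 difference was -0.08, against -1.42 and -1.61 in the others. Without that library Abcg8 changed by -1.56.

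Abcg2, a urate and drug exporter, read 107, 125, 179 and 127 CPM in WT and 225, 181, 208 and 180 CPM in KO. All KO values were above all WT values, but the adjusted p missed the threshold (0.56, adjusted p = 0.0512). Abcg2 was called higher with all 8 libraries by DESeq2 (adjusted p = 0.0255), limma-voom (0.0424) and the series covariate (0.0409), with the 1 CPM filter (0.0428), and with upper-quartile (0.69, adjusted p = 0.019), hepatocyte (0.89, adjusted p = 0.00794) and library-total scaling (1.01, adjusted p = 0.00063). It was also called without WT replicate 3, its highest WT library (0.72, adjusted p = 0.00123).

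Abcb1a and Abcb1b are the rodent duplicates of the gene for P-glycoprotein, an exporter of many hydrophobic drugs, and they stand beside Abcb4 on chromosome 5. Abcb1a (8660077 to 8748575) read 1.32, 1.97, 1.42 and 3.04 CPM in WT and 6.09, 9.05, 7.01 and 4.22 CPM in KO. Abcb1b (8798147 to 8866315) read 1.85, 1.66, 1.84 and 1.20 CPM in WT and 11.3, 13.1, 10.9 and 10.2 CPM in KO. Each KO library exceeded each WT library for both genes. Abcb1b rose 7.08-fold (2.82 ± 0.22, adjusted p = 8.17e-06) and Abcb1a 3.26-fold (1.71 ± 0.33, adjusted p = 0.0028). Within the 3 series of library numbers Abcb1a rose by 2.41, 2.23 and 0.76, and Abcb1b by 2.65, 2.51 and 2.76. Of the stretches of 50 bases in the transcripts of Abcb1a, 16.3% also occur in those of Abcb1b, so some reads may have been split between the duplicates. The neighbours differed in kind, in that Abcb4, which follows Abcb1b on the same strand, was not called.

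The 100 bases before the start of Abcb1b are shown because this gene rose most among the canalicular exporters (RefSeq, GRCm38.p6, chr5:8798047-8798146, plus strand). Capitals mark CCAAT boxes on either strand (CCAAT, in 37.4% of all RefSeq promoters and in 15 of 38 ABC genes) and a GC box (GGGCGG, in 35.7% and in 18 of 38).
Abcb1b: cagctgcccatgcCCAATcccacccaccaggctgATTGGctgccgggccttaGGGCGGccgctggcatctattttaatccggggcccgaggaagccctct
It holds 2 CCAAT boxes and 1 GC box. The stretch lies within an exon of Gm5106, which is antisense to Abcb1b and had 36 counts in all 8 libraries together, against 978 for Abcb1b.

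**Figure D2:**
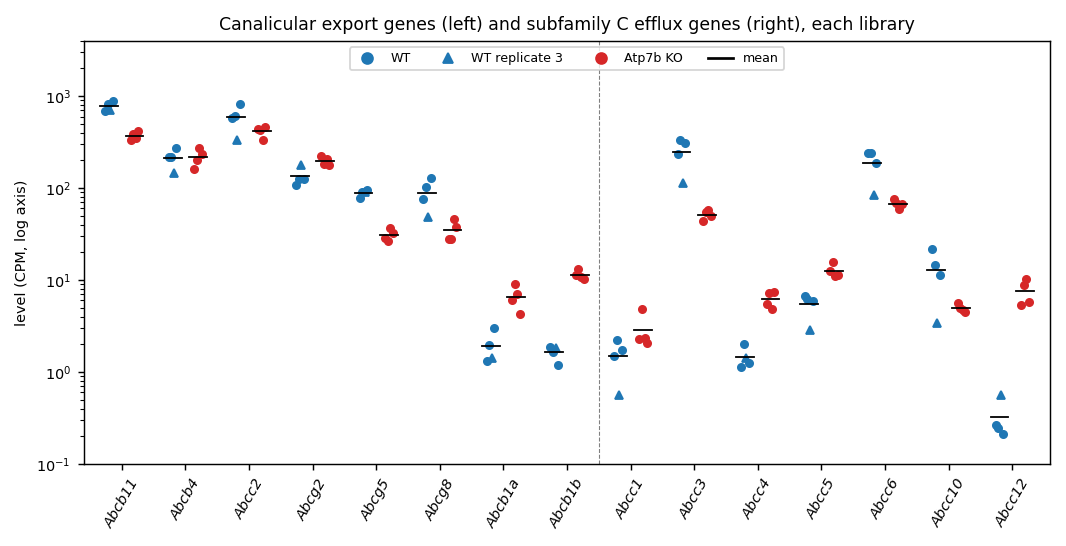
Level (CPM, log axis) of 8 canalicular and 7 subfamily C efflux genes in each of the 4 WT and 4 KO libraries, with lines at the group means and a triangle for WT replicate 3. KO libraries lie below WT for Abcb11, Abcg5, Abcg8, Abcc3 and Abcc6 and above WT for Abcb1b, Abcc4 and Abcc12, while Abcb4 and Abcc2 overlap.

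The efflux genes of subfamily C split. Abcc3, Abcc6 and Abcc10 fell, Abcc4, Abcc5 and Abcc12 rose, and Abcc1 was not called, so that 3 of 7 were called higher (17.6% of all tested genes) and 3 lower (12.5%). Summed over the 7 genes, the level went from between 208 and 600.4 CPM in WT to between 148 and 166 CPM in KO. That separation depended on TMM scaling, as by library totals WT replicate 3 fell below every KO library. Most of the sum came from Abcc3 and Abcc6 (means of 249 and 188 CPM in WT, of 459 CPM), so it does not describe the genes that rose.

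Abcc3, a basolateral exporter of glucuronides and bile acids, read 237, 335, 114 and 312 CPM in WT and 43.8, 55.0, 57.4 and 49.3 CPM in KO. The groups were separate even with WT replicate 3 as the lowest WT library (-2.28 ± 0.31, adjusted p = 3.1e-04), and this was the largest fall of any tested ABC gene. Within the 3 series of library numbers Abcc3 changed by -2.27, -0.99 and -2.71, least in the series of WT replicate 3. Abcc6, which acts in ATP release from hepatocytes and is defective in pseudoxanthoma elasticum, read 241, 240.2, 85.1 and 187 CPM in WT and 75.2, 69.1, 59.5 and 67.8 CPM in KO. It fell 2.77-fold without overlap in TMM-scaled CPM (-1.47 ± 0.29, adjusted p = 0.00352). By library totals, WT replicate 3 (601 of 9880253 counts) lay below every KO library, the lowest being KO replicate 3 (1171 of 16244837). The fall was still called with library totals alone (-1.105, adjusted p = 0.0268). Within the 3 series of library numbers Abcc6 changed by -1.74, -0.52 and -1.64, least in the series of WT replicate 3. Abcc10, an exporter of lipophilic anions and drugs, read 21.9, 14.8, 3.40 and 11.3 CPM in WT and 5.59, 4.96, 4.78 and 4.51 CPM in KO. WT replicate 3 was below every KO library, so the groups overlapped. Abcc10 was called lower with all libraries (-1.39 ± 0.41, adjusted p = 0.0278) and more firmly without that one (-1.69, adjusted p = 4.92e-05), but the call was lost when any 1 of the other libraries except WT replicate 4 was left out (adjusted p from 0.0558 to 0.0769).

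Abcc4, an exporter of cyclic nucleotides and of bile acids together with glutathione, read 1.14, 2.03, 1.42 and 1.24 CPM in WT and 5.46, 7.30, 4.83 and 7.48 CPM in KO. The lowest KO library was more than 2 times the highest WT library (2.09 ± 0.27, adjusted p = 2.27e-04). The 100 bases before its start are shown because Abcc4 is a known target of NRF2, the factor of the antioxidant response (RefSeq, GRCm38.p6, chr14:118706220-118706319, minus strand). Capitals mark the antioxidant response core TGACNNNGC, here on the opposite strand, directly followed by a GC box.
Abcc4: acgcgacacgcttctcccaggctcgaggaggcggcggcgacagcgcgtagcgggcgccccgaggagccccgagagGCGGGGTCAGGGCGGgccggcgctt
That core is common. It occurred in 12.4% of all RefSeq promoters and in 5 of the 38 ABC genes, which were Abcc4, Abcc2, Abcc10, Abcb1a and Abca8b, and these include genes that rose, fell and were not called.

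Abcc5, a cyclic nucleotide exporter, read 6.78, 6.27, 2.83 and 5.96 CPM in WT and 12.5, 15.7, 11.1 and 11.5 CPM in KO (1.19 ± 0.26, adjusted p = 0.00538), a rise without overlap. Abcc12, an orphan member whose substrate is not established, read 0.264, 0.246, 0.566 and 0.214 CPM in WT and 5.40, 8.87, 10.3 and 5.71 CPM in KO. This was the largest change among the tested ABC genes (4.70 ± 0.38, adjusted p = 1.14e-05), from a WT level near that of 3 counts per library, which is 0.129 to 0.425 CPM. Abcc12 passed the filter on low counts through its KO libraries alone, so its test is not independent of the filter. The counts of ABC genes called higher include it. Abcc1, a general exporter of glutathione conjugates, read 1.496, 2.21, 0.566 and 1.72 CPM in WT and 2.29, 4.82, 2.34 and 2.06 CPM in KO, with overlap (0.87, adjusted p = 0.121), and was called higher with library totals alone (1.28, adjusted p = 0.0437) and with hepatocyte scaling (1.23, adjusted p = 0.0412).

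Markers of some other cell types also differed between the genotypes. In whole liver, fewer cells of a type and less RNA per cell cannot be told apart. Of 9 tested cholangiocyte markers, 8 were called higher, with a median change of 3.88 and a summed level of 43.0 to 96.5 CPM in WT and 440 to 1057 CPM in KO. Hepatocyte markers, which show the tissue to be liver, had 3 of 11 called lower (Apoa1, Hnf4a and Trf) and 0 higher, with a median change of -0.63. Of macrophage markers 1 of 8 rose, of stellate cell markers 2 of 8, of lymphocyte markers 3 of 5 and of neutrophil markers 2 of 3, and of endothelial markers 1 of 8 fell, where 17.6% of all tested genes rose and 12.5% fell. With all libraries, the macrophage and endothelial counts were thus near the shares of all genes. Without WT replicate 3 (26.0% and 23.4% of all genes), 5 of 8 endothelial markers fell, 3 of 8 macrophage, 3 of 8 stellate cell and 5 of 6 lymphocyte markers rose, and of hepatocyte markers 5 fell and 1 rose. With library totals alone, 2 hepatocyte markers rose and 0 fell (30.4% and 4.06% of all genes). The 3 lymphocyte markers called with all libraries (Cd3d, Cd8a and Nkg7) passed the filter on low counts through KO libraries alone, so that count is not independent of the filter. The part of these cells in the changes of the ABC genes was not tested.

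The sterol and phospholipid transporters of subfamily A and of Abcg1, Abcg3 and Abcg4 showed no called gene in edgeR with TMM scaling and all libraries. Of 10 genes, 6 were tested. Abca1, which loads cholesterol and phospholipid onto apolipoprotein A-I, read 154 to 215 CPM in WT and 96.5 to 184 CPM in KO (-0.35, adjusted p = 0.269). Abcg1, a sterol exporter prominent in macrophages, changed by 0.45 and the rodent gene Abcg3 by 0.65, which was called higher with library totals alone (1.10, adjusted p = 0.0398) and with the series covariate (0.95, adjusted p = 0.0256). Abca2, a lipid transporter of endosomes and lysosomes, Abca7, a phospholipid transporter linked to phagocytosis, and Abca3, the surfactant lipid transporter of the lung, changed by -0.87, -0.83 and -0.29. These last 3 had their lowest WT value in replicate 3, and all 3 were called lower without it, Abca2 at -1.16 (adjusted p = 3.39e-05), Abca7 at -1.04 (adjusted p = 0.00357) and Abca3 at -0.60 (adjusted p = 0.0101). With all libraries, Abca7 was also called lower by DESeq2 (adjusted p = 0.0478) and Abca2 and Abca7 with no filter (adjusted p = 0.0174 and 0.04).

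The Abca6-like genes, a tandem cluster of 5 on chromosome 11, differed among neighbours. Abca8a (110025634 to 110095978) read 68.9, 105, 151 and 137 CPM in WT and 47.9, 43.7, 50.3 and 52.9 CPM in KO. It fell 2.37-fold without overlap (-1.24 ± 0.23, adjusted p = 0.00256). Abca8b, its adjacent duplicate, read 80.7 to 109 CPM in WT and 67.8 to 84.4 CPM in KO and was not called (-0.27, adjusted p = 0.236). Abca6 (-0.82), Abca5 (0.25) and Abca9 (0.53) were not called either in edgeR with all libraries. Abca9 was called higher without WT replicate 3 (0.53, adjusted p = 0.0307), and with all libraries by DESeq2 (adjusted p = 0.0311), with the 1 CPM filter (0.0472) and with upper-quartile (0.65, adjusted p = 0.0249), hepatocyte (0.85, adjusted p = 0.0123) and library-total scaling (0.95, adjusted p = 0.00489). Abca5 was called higher with library totals alone (0.70, adjusted p = 0.0298). For Abca6, WT replicates 3 and 4 read 228 and 249.6 CPM and WT replicate 1 read 82.5 CPM, within the KO range of 80.2 to 109 CPM. Without WT replicate 1, Abca6 was called lower (-1.07, adjusted p = 0.0132), as it was by DESeq2 (adjusted p = 0.0482) and with no filter (adjusted p = 0.0228).

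In subfamily D, the peroxisomal gene of highest level fell. Abcd3, the peroxisomal membrane protein that imports branched-chain and bile acid precursor CoA esters for side-chain shortening, read 717, 789, 742 and 964 CPM in WT and 319, 357, 329.8 and 413 CPM in KO. The groups were well apart (-1.18 ± 0.18, adjusted p = 7.1e-04), with a difference between -1.08 and -1.17 within each series of library numbers. Abcd2, a peroxisomal importer of very long-chain acyl-CoA, and Abcd4, a lysosomal protein of cobalamin export, changed by -0.53 and -0.73 and were not called. Abcd4 was called lower without WT replicate 3 (-0.92, adjusted p = 0.00179), and with all libraries by DESeq2 (-0.74, adjusted p = 0.0257) and with no filter (-0.72, adjusted p = 0.0431).

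Of the mitochondrial and lysosomal members of subfamily B, 5 were tested and 2 fell (12.5% of all tested genes did), or 3 without WT replicate 3 (23.4%). Abcb10, an inner-membrane protein of mitochondria needed for haem production in red cell precursors, read 50.1, 47.6, 49.5 and 52.5 CPM in WT and 27.7, 24.99, 19.8 and 27.0 CPM in KO. Its WT values spread little, and the groups were far apart (-1.005 ± 0.16, adjusted p = 7.86e-04), though 10.3% of its exon bases overlap an antisense gene, Gm45890, with 1470 counts against 4851 for Abcb10. Abcb6, linked to porphyrin transport, read 1.94, 1.41, 0.283 and 0.943 CPM in WT and 0.444, 0.597, 0.254 and 0.240 CPM in KO, with 99 counts in all, and its groups overlapped. Of the exon bases of Abcb6, 55.2% overlap Gm29253, annotated on the same strand, which had 0 counts. How reads there were assigned is not given, so the level of Abcb6 may rest on part of the gene. Abcb6 was called lower (-1.61 ± 0.49, adjusted p = 0.031), a call lost when any 1 of 5 libraries was left out (adjusted p from 0.0607 to 0.0919). Abcb8, of the mitochondrial inner membrane, changed by -0.42 and the lysosomal peptide transporter Abcb9 by -0.33, and neither was called. Abcb8 was called lower without WT replicate 3 (-0.57, adjusted p = 0.00149).

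The soluble members were not called with TMM scaling and all libraries. Abce1, which splits ribosomes after termination, changed by 0.14, and the translation factor Abcf1 and its relatives Abcf2 and Abcf3 by -0.06, -0.02 and -0.15. Abce1 was called higher with library totals alone (0.61, adjusted p = 0.0315) and without WT replicate 3 (0.43, adjusted p = 0.0231), the library in which it read 184 CPM against 89.4 to 102 CPM in the other WT libraries. Directions of Abcf1, Abcf2 and Abcf3 turned with library totals alone (0.33, 0.39 and 0.25) and with hepatocyte scaling (0.27, 0.32 and 0.17). The sulfonylurea receptor Abcc9, the regulatory subunit of a vascular potassium channel, read 12.2 to 25.2 CPM in WT and 22.7 to 32.4 CPM in KO (0.40, adjusted p = 0.223), and was called higher with library totals alone (0.79, adjusted p = 0.0466) and with hepatocyte scaling (0.73, adjusted p = 0.0374). Kcnj8, which encodes the pore of that channel, rose (1.24, adjusted p = 0.00256). Abca14, of the rodent genes Abca14 to Abca17, changed by -0.69 (adjusted p = 0.176).

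The 9 untested members had few reads. Summed over 4 libraries, counts in WT and KO were 0 and 8 for Abca12, 1 and 12 for Abca13, 0 and 10 for Abca15, 0 and 5 for Abca16, 7 and 31 for Abca17, 14 and 59 for Abca4, 0 and 2 for Abcb5, 1 and 8 for Abcc8, and 4 and 10 for Abcg4. The KO sum was the higher one for each of them, as it was for 77.9% of the 18425 untested genes with any count. Set against 3 counts summed over WT, the limit that a count of 0 allows, the KO level was 2.48-fold higher for Abca15, 1.98-fold for Abca12 and 1.24-fold for Abca16. These values allow for counting error in WT only. The KO sums were taken as counted, so the values are not lower bounds. Abca4, the retinal transporter, passed the filter on low counts without WT replicate 3, through its KO libraries, so that its call as higher there (1.52, adjusted p = 0.0129) is not independent of the filter. Abca17 shares 2.63% of its stretches of 50 bases with Abca3, which had far more counts.

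Ratios between related members within 1 library do not depend on how libraries are scaled, and 6 pairs were compared, of which 5 are described. The ratio of Abcb4 to Abcb11 counts was 0.315, 0.265, 0.205 and 0.312 in WT and 0.485, 0.533, 0.783 and 0.557 in KO. The ratio of Abcc3 to Abcc2 was 0.410, 0.545, 0.340 and 0.380 in WT and 0.0993, 0.128, 0.173 and 0.106 in KO. Neither pair overlapped between genotypes, so phospholipid exporter RNA rose relative to bile salt pump RNA (difference in mean log2 ratio 1.10), and the basolateral conjugate exporter fell relative to the canalicular one (-1.74). Abcb1a fell relative to Abcb1b (-1.01) and Abca8a relative to Abca8b (-0.92), also without overlap. Each of these 4 differences had p = 0.0286 in an exact two-sided permutation test, the smallest p that 4 against 4 libraries allow, and 0.0429 after adjustment over the 6 pairs. With medians in place of means, each adjusted p was 0.0857.

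The Abcg8 to Abcg5 pair overlapped. Its ratio was 0.971, 1.15, 0.535 and 1.35 in WT and 0.967, 1.06, 1.25 and 1.16 in KO (difference 0.22, exact p = 0.629, adjusted 0.754). WT replicate 3 lay farthest out.

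**Figure D3:**
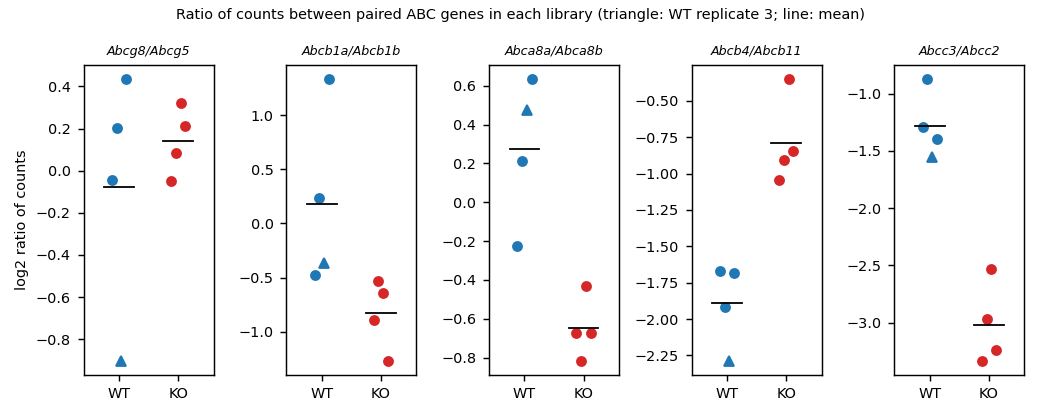
Log2 ratio of counts within each library for 5 pairs of related ABC genes, 4 WT and 4 KO libraries each, with lines at the group means. The ratios of Abcb1a to Abcb1b, Abca8a to Abca8b and Abcc3 to Abcc2 are lower in every KO library than in any WT library, that of Abcb4 to Abcb11 is higher, and that of Abcg8 to Abcg5 overlaps.

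Levels can be compared between genes only per length of transcript. In CPM per kilobase of annotated exon, WT levels were led by Abcb11 at 151 ± 18.6, then Abcd3 at 122 ± 16.9, Abcc2 at 68.8 ± 23.3 and Abcc3 at 43.8 ± 17.4 (SD, n = 4). Abcb11 and Abcd3 differed by less than the sum of their SDs, and so did Abcc2 and Abcc3. In KO the order was Abcb11 at 72.0 ± 7.20, Abcd3 at 53.8 ± 6.37, Abcc2 at 49.0 ± 6.95, Abcg2 at 24.4 ± 2.70 and Abcb4 at 23.3 ± 5.16, where Abcd3 and Abcc2 lay within 1 SD of each other and so did Abcg2 and Abcb4. Abcc3 had dropped to 9.02 ± 1.07.

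Summed over the family, the level per kilobase went from 715.5 in WT to 425.5 in KO, and the summed CPM from 3733 to 5106 in WT to 2543 to 2893 in KO, without overlap. That separation depended on the scaling. With library totals alone, an alternative added after seeing the data, the summed CPM was 3765, 4316, 2669 and 4326 in WT and 2864 to 3360 in KO, so that WT replicate 3 fell below every KO library. The canalicular genes made up 44.1% of the WT sum per kilobase and 45.1% of the KO sum. The subfamily C efflux genes went from 11.1% to 5.90%, subfamily D from 18.3% to 14.1%, and the soluble members from 8.31% to 14%. The subfamily C share of WT replicate 3 was 5.80%, within the KO range of 5.36% to 6.20%, against 10.7% to 13.8% in the other WT libraries. With coding length in place of exon length the canalicular share was 38.3% and 42.7% and the subfamily C share 7.23% and 3.87%, and Abcd3 came first in both genotypes. The genes that rose stayed low, as Abcb1b, Abcb1a, Abcc5, Abcc12 and Abcc4 reached 1.42, 1.20, 1.19, 1.14 and 0.981 CPM per kilobase in KO.

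**Figure D4:**
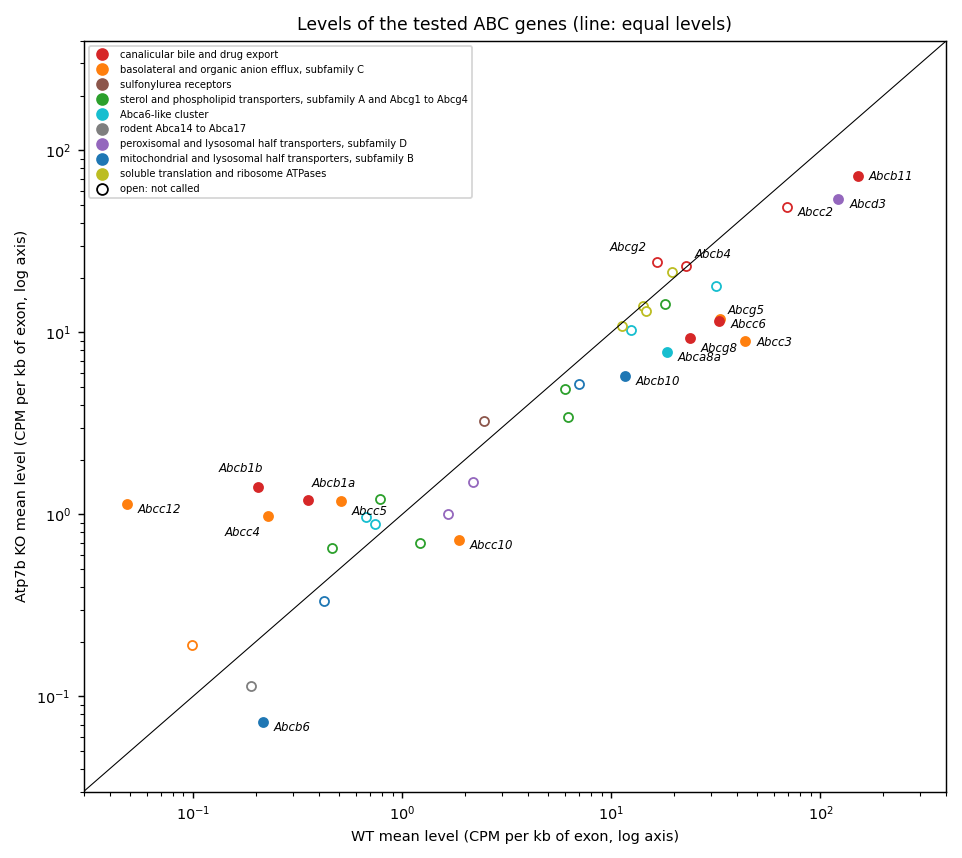
Mean level of 39 of the 41 tested ABC genes in CPM per kilobase of exon, WT (horizontal, log axis) against KO (vertical, log axis), n = 4 libraries each; the line marks equal levels and open circles were not called. Abcb11 and Abcd3 lie highest and below the line, and the 5 genes above the line that were called are all under 1.5 CPM per kilobase in KO.

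Genes that work with the ABC exporters were described from lists. Of 3 ABC genes under other symbols, Cftr, the chloride channel of bile duct epithelium, rose (0.290 ± 0.128 to 4.202 ± 1.71 CPM, 3.93 ± 0.48, adjusted p = 1.62e-04), while the peptide transporters Tap1 (0.18) and Tap2 (0.10) were not called. Cftr had 15 counts over the WT libraries and passed the filter on low counts through its KO libraries alone, so its test is not independent of the filter, and it also counts among the cholangiocyte markers given above. Of 12 canalicular partners that are not ABC genes, Ezr, the ezrin linker of membrane to actin, rose (1.96), Rdx, the radixin that holds Abcc2 in the canalicular membrane, fell (-0.69), and 10 were not called, where 17.6% of all tested genes rose and 12.5% fell. The call of Rdx was lost with library totals alone (-0.23, adjusted p = 0.271), with hepatocyte scaling (-0.35, adjusted p = 0.231) and without KO replicate 2 or 3 (adjusted p = 0.0548 and 0.051). Without WT replicate 3, 2 of the 12 were called lower (23.4% of all genes) and 1 higher (26.0%), and with library totals alone 4 were called higher (30.4%) and 0 lower (4.06%).

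Of 16 regulators of hepatic ABC genes, 9 were called lower (12.5% of all tested genes were) and 0 higher (17.6%), with a median of -0.65. With library totals alone 3 were lower and 1 higher (4.06% and 30.4% of all genes). With hepatocyte scaling 5 were lower (4.75% of all genes), and without WT replicate 3 11 were (23.4%). Nr1i3, the constitutive androstane receptor and an inducer of several drug exporters, fell most clearly (-1.47 ± 0.17, adjusted p = 1.41e-04). Foxa2 (-1.09), Mafg (-1.0) and Rxra (-1.19), the partner of several nuclear receptors, also fell, Mafg not with library totals alone (adjusted p = 0.0632). Nr1h4, which encodes FXR, was called lower (-0.55, adjusted p = 0.0362) with all libraries and not with library totals alone (-0.12, adjusted p = 0.600), with hepatocyte scaling (-0.24, adjusted p = 0.419), or when any 1 of 5 libraries was left out (adjusted p from 0.0528 to 0.109). Its target Nr0b2 (-0.99, adjusted p = 0.228) and the sterol receptor gene Nr1h3 (0.16, adjusted p = 0.474) were not called, although Nr1h3 was called higher with library totals alone (0.60, adjusted p = 0.00982). Nr0b2 read 48.8 CPM in KO replicate 3 and 9.10 to 11.2 CPM in the other KO libraries, and without that library it was called lower (-1.95, adjusted p = 0.0089), as it was with no filter (adjusted p = 0.0425).

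LXR, the sterol receptor encoded in liver chiefly by Nr1h3, is a known activator of Abca1, Abcg5 and Abcg8. The list of other LXR targets held 6 tested genes, and Nr1h3 itself, given above and not called, was left out of the counts here. Of the remaining 5, 4 fell (12.5% of all tested genes did), 0 rose and the last was not called. Those that fell were Scd1 (-2.22), Pltp (-1.83), Srebf1 (-1.37) and Lpcat3 (-0.52). With library totals alone 2 of the 5 fell and 0 rose (4.06% and 30.4% of all genes), with Nr1h3, called higher there, left out. Srebf1 (adjusted p = 0.0693) and Lpcat3 (-0.09, adjusted p = 0.739) were no longer called. The Lpcat3 call was also lost with hepatocyte scaling (-0.17, adjusted p = 0.529), with upper-quartile factors (adjusted p = 0.0897), with no filter (adjusted p = 0.118) and when any 1 of 6 libraries was left out (adjusted p from 0.0512 to 0.0908). Abcg5 and Abcg8 also fell, and Abca1 was not called. The part of LXR in these changes was not tested. Of 8 partners of the peroxisomal transporters, 6 fell (12.5% of all tested genes did), with a median of -0.92. With library totals alone 3 of the 8 fell (4.06% of all genes). Among the 6 were the acyl-CoA synthetases Acsl1 (-2.15) and Slc27a2 (-1.76) and the assembly factor Pex16 (-0.91). Pex16 was not called with library totals alone (adjusted p = 0.0691). The change of Abcd3 was in the direction of these genes. Over the 45 tested genes of these partner lists, each counted once, 20 were called lower (44.4%, against 12.5% of all genes) and 3 higher (6.67%, against 17.6%). With library totals alone 8 were lower (17.8%, against 4.06%) and 7 higher (15.6%, against 30.4%).

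Removing WT replicate 3 added 11 calls in the family and removed none. Those added as lower include Abca2, Abca3, Abca7, Abcb8, Abcc2 and Abcd4, and added as higher were Abca4, Abca9, Abce1 and Abcg2. The share of all tested genes called also went from 30.0% to 49.3%, so calls rose throughout the table. Leaving out any other single library gave between 13 and 16 called ABC genes. Of all tested genes, 27.2%, 25.7% and 25.3% were called without WT replicates 1, 2 and 4 (higher 16.6%, 16.1% and 15.9%, lower 10.6%, 9.61% and 9.35%). Without KO replicates 1 to 4 they were 24.3%, 22.9%, 23.0% and 25.2% (higher 15.6%, 14.6%, 14.8% and 16.4%, lower 8.62%, 8.27%, 8.16% and 8.8%). With the library number series as a covariate, 7 ABC genes were called higher (17.9% of all genes) and 10 lower (12.9%), 17 in all (30.8%).

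**Figure D5:**
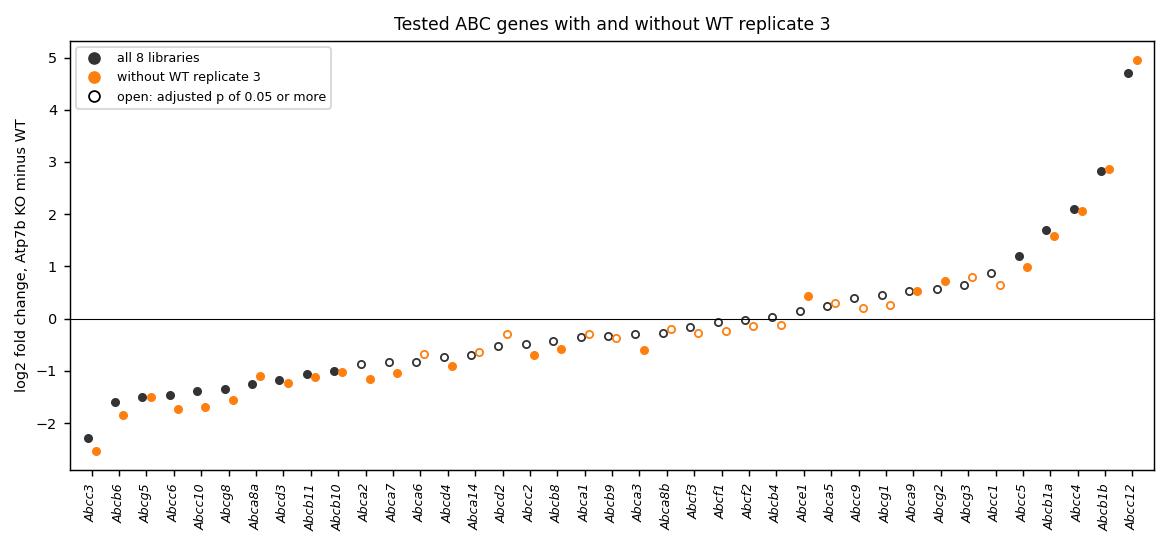
Log2 fold change (KO minus WT, vertical axis) of 39 of the 41 genes tested with all 8 libraries (dark) and again without WT replicate 3 (orange), ordered by the first; filled points have an adjusted p under 0.05. The 15 genes called with all libraries stay called, and 9 more are filled in orange alone.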

How the data were processed

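Liver RNA was profiled in 8 libraries. Per the labels' protocols, RNA was extracted with Trizol, DNase-treated and column-cleaned. The submitters' processing notes name FastQC, cutadapt, STAR and mm10, without versions. How reads were counted, with which strand setting and annotation release, is not given in the sources used here. Per the values, the deposited table holds the authors' raw counts per gene, not normalized.

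Members, lists, tests and most alternatives were chosen with earlier results of these data known. Coordinates and exon lengths came from GENCODE M21 (mm10), which listed all 50 members, 47 under the same identifier version. Genes were filtered with edgeR's filterByExpr, scaled by TMM and fitted with the quasi-likelihood test on all 15811 genes (edgeR 4.0.16, limma 3.58.1, R 4.3.3), on genotype alone, with Benjamini-Hochberg adjustment. The SE is the log2 change divided by the square root of F. Pair ratios used a prior count of 0.5 and an exact permutation test over 70 arrangements (scipy 1.17.1). Library numbers were grouped here into 3 series by size, which the labels neither give nor call batches. Promoters came from RefSeq. Values were given per library for every canalicular and subfamily C efflux gene and for other called members averaging 1 CPM or more in a genotype, and for partners for up to 4 called genes of lowest p per list plus Nr1h4, Nr0b2, Nr1h3, Cftr, Tap1 and Tap2. Alternatives were DESeq2 1.42.0, limma-voom, other scalings, filters and thresholds, the series as covariate, and leaving out each library. The procedure was tested on simulated data of 15595 genes, where it called 1 of 66 genes made to differ 1.5-fold, 9 of 66 at 2-fold and 56 of 63 at 4-fold, plus 2 false ones. Results of a few genes are not reported here, but all counts, medians and adjustments include them. Floors cover counting error in WT only.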

Additional observations from a re-analysis of the deposited data

Results flagged for a closer look

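In 6 of 136 groups of 4 libraries, 1 library lay far from the others by Dixon's test, and chance alone flags about 1 group in 20. Abcc1 read 4.82 CPM in KO replicate 2, against 2.06 to 2.34 CPM in the other KO libraries. Abcc12 read 0.566 CPM in WT replicate 3, against 0.214 to 0.264 CPM in the other WT libraries, so the low WT level behind its rise rests on few reads in each library. Abce1 read 184 CPM in WT replicate 3, against 89.4 to 102 CPM in the other WT libraries, and it was called higher without that library. Among regulators and LXR targets, Nr0b2 read 48.8 CPM in KO replicate 3, against 9.1 to 11.2 CPM in the other KO libraries, and it was called lower without that library. Scd1 read 2006 CPM in KO replicate 3, against 4390 to 4866 CPM in the other KO libraries. Lpcat3 read 90.7 CPM in KO replicate 2, against 82.6 to 83.6 CPM in the other KO libraries, a narrow range.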

How the results depend on the processing

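No paired analysis was possible because the labels number no replicates, and numbers given in accession order do not pair libraries. Of the 15 called ABC genes, 13 kept their call in all 18 settings. Abcb6 kept it in 8 of 17 and Abcc10 in 8 of 18, and both lost it with limma-voom (adjusted p = 0.0592 and 0.0654), library totals (0.106 and 0.112) and hepatocyte scaling (0.084 and 0.0773).

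The ABC median was -0.21 with upper-quartile factors, 0.08 with library totals, -0.03 with hepatocyte scaling and -0.02 with no filter, where the added genes had few counts. ABC genes called higher were 12 with totals (30.4% of all genes) and 9 with hepatocyte scaling (24.2%). Partner genes called were 7 higher and 8 lower with totals (30.4% and 4.06% of all genes). They were 13 lower with hepatocyte scaling (4.75%) and 13 lower at an adjusted p under 0.01. For that threshold the share of all genes was not computed.

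Described genes that turned were not called with all libraries. With totals these were Abca1 (0.09), Abca3 (0.08), Abca8b (0.17), Abcb9 (0.07), Abcf1 (0.33), Abcf2 (0.39) and Abcf3 (0.25). With hepatocyte scaling they were Abca3 (0.04), Abca8b (0.06), Abcf1 (0.27), Abcf2 (0.32) and Abcf3 (0.17). Upper-quartile factors turned Abcf1 (0.06) and Abcf2 (0.10), and the number series as covariate turned Abcf1 (0.03) and Abcf2 (0.04). The cause was not tested.

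With 1 library left out, ABC genes called higher ranged from 5 to 9 and lower from 8 to 17. Partner genes called higher stayed at 3 and lower ranged from 15 to 23. Of all genes, 14.6% to 26.0% were called higher in these fits and 8.16% to 23.4% lower. The ABC median ranged from -0.39 to -0.22. Abcb4 ranged from -0.13 to 0.18, Abcf1 from -0.25 to 0.05, Abcf2 from -0.15 to 0.05, Tap1 from -0.05 to 0.32 and Tap2 from -0.15 to 0.22. Pair differences ranged from -0.05 to 0.39 for Abcg8 to Abcg5, -1.23 to -0.63 for Abcb1a to Abcb1b, -1.09 to -0.80 for Abca8a to Abca8b, 0.96 to 1.19 for Abcb4 to Abcb11 and -1.90 to -1.61 for Abcc3 to Abcc2, and 3 against 4 libraries cannot reach p under 0.05. As medians the 4 called pair differences were -0.70 (Abcb1a to Abcb1b), -1.02 (Abca8a to Abca8b), 0.92 (Abcb4 to Abcb11) and -1.76 (Abcc3 to Abcc2), with an adjusted p of 0.0857. By coding length the canalicular share was 38.3% in WT and 42.7% in KO, and the subfamily C share 7.23% and 3.87%. On simulated counts changes of 2-fold were mostly missed. Only 66, 66 and 63 of 15595 genes were made to differ there, while 4746 of 15811 were called in the data. The shares recovered there therefore do not carry over to these data. Uncalled members may still have changed.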

Other observations

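Other promoter matches among the 38 ABC genes were few. A match to the site of the hepatocyte factor HNF1 (GTTAAT, any base, ATTAAC) with at most 2 mismatches occurred in Abcc2 and in 1.36% of all promoters. A match to the LXR direct repeat (AGGTCA, any 4 bases, AGGTCA) with at most 2 mismatches occurred in Abcc10 and in 3.02% of all promoters. Abcc2, with the first, was called lower without WT replicate 3, and Abcc10, with the second, was called lower with all libraries. Of the 38 genes, 25 had a RefSeq start within 10 bases of the GENCODE gene start, so the windows of the others may lie elsewhere than the annotated gene start.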
